A study of Mus musculus with 12 samples.

Results

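The genes described here are 10 genes that mark lung blood vessels and their capillaries: *Pecam1*, *Cdh5*, *Kdr*, *Tek*, *Vwf*, *Car4*, *Ednrb*, *Aplnr*, *Apln* and *Plvap*. They were taken by name. Each had exactly 1 transcript cluster that carries its symbol and no other, so that all 10 were measured, out of 23410 clusters with a gene symbol on the array. RNA from left lungs of 12 mice on a mixed C57/129S background was taken 5 days after 0.075 U of bleomycin in 30 µL, or PBS, was given into the trachea, and each lung was hybridised to its own Affymetrix MoGene 1.0ST v1 array. The 4 groups of 3 mice were bleomycin-treated Fra-1-/- mice (KOT), PBS-treated Fra-1-/- mice (KOC), bleomycin-treated Fra-1+/+ mice (WTT) and PBS-treated Fra-1+/+ mice (WTC). Fra-1 is an AP-1 transcription factor encoded by *Fosl1*. By the study's methods, both genotypes carry floxed alleles of the gene and the Fra-1-/- mice also carry a Cre driven by Meox2, which acts in the embryo proper and not in the tissues outside it, so the Fra-1+/+ mice are floxed mice without that Cre and the groups differ in Cre as well as in Fra-1. The labels call the mice 2 months old and female. Each mouse is named by its group and animal number, such as KOT 72.

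Endothelial cells line every vessel of the lung, and most of them lie in the alveolar capillaries, where gas is exchanged. In mice those capillaries hold a pair of cell types, the general capillary cells, which renew the bed, and the aerocytes, large thin cells closely apposed to the alveolar type 1 cells. *Pecam1* and *Cdh5* are used by endothelial cells of all vessels. *Kdr* and *Tek* encode the receptors for VEGF-A and the angiopoietins. *Aplnr* and *Plvap* are general capillary genes, *Car4*, *Ednrb* and *Apln* are aerocyte genes, and *Vwf* is a gene of larger vessels more than of capillaries. Whole lung was measured, so fewer endothelial cells and less of an RNA in each cell cannot be told apart.

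Promoter sequence was held in RefSeq (GRCm38.p6) for 5 of the 10 genes, *Kdr*, *Tek*, *Car4*, *Ednrb* and *Apln*. The 250 bases before the start are shown for *Car4* and *Apln*, the aerocyte-enriched enzyme and the ligand of the apelin receptor, because the study removes an AP-1 factor and their windows lie outside the RefSeq gene. The windows of *Kdr*, *Tek* and *Ednrb* lie partly or wholly within the RefSeq gene and are not shown, and positions in them are counted from the start that RefSeq's window uses. The *Car4* window lies on the plus strand at chr11:84957504-84957753 and the *Apln* window on the minus strand at chrX:48034854-48035103, and both are written 5′ to 3′ in lower case, with a GC box in capitals.
Car4: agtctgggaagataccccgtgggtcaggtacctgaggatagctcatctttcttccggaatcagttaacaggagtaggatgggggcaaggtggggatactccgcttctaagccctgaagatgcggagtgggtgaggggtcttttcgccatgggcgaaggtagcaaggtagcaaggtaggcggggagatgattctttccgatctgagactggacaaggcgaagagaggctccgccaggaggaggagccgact
Apln: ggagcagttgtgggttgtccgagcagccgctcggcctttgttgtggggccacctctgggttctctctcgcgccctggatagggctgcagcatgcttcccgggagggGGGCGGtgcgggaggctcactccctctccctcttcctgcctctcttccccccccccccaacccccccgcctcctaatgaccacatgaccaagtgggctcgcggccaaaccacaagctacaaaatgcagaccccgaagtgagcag
The AP-1 motif TGANTCA was searched on both strands, where it reads the same, and had 0 matches in the windows of all 5 genes. It was held by 6.75% of 32851 mouse promoter windows of the same length. The GC box GGGCGG or its reverse complement CCGCCC was in the windows of *Apln*, at -144, and *Kdr*, at -166 and -45, and in 32.7% of all windows. The ETS motif GGAAGT or its reverse complement ACTTCC was in that of *Kdr* alone, at -217, and in 19.7% of all windows. Other forms of the ETS site were not searched. TATAAA or TTTATA was in 0 of the 5 and in 12.4% of all windows. No motif searched is contained in another. These are matches of letters and say nothing of binding.

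The arrays were alike, with medians between 7.14 and 7.22 on the log2 scale and a mean correlation of 0.990 to 0.994 with their group. *Fosl1* was at 7.33, 7.32 and 7.28 in KOT, 6.68, 6.26 and 6.56 in KOC, 7.81, 8.19 and 8.32 in WTT and 6.37, 6.76 and 6.86 in WTC. The KOT mice were all lower than the WTT mice and the PBS groups overlapped. Whether the probes lie in the deleted part is not given in the sources used here, so this level neither bears out nor opposes the genotype labels. In all 12 arrays *Xist* was between 4.47 and 4.94 and the Y-linked *Eif2s3y* between 8.52 and 8.93, which goes against the sex in the labels. The tissue label of lung held, with the 7 alveolar type 2 genes listed averaging 11.86 to 12.80 in every mouse.

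Bleomycin lowered 9 of the 10 genes and raised *Vwf* when its effect was averaged over both genotypes, with 6 bleomycin-treated mice against 6 PBS-treated mice. Over all clusters, 16.3% were lower and 15.7% higher by the same test, a moderated linear model (limma) with a Benjamini-Hochberg adjusted p under 0.05. The median log2 fold change of the 10 genes was -0.65, against 0.02 over all clusters. Taken by genotype, 8 genes were lower and 0 higher in KOT against KOC, where 7.98% of all clusters were lower and 7.42% higher, and 7 were lower and 0 higher in WTT against WTC, where 11.3% were lower and 10.2% higher. Both comparisons called *Pecam1*, *Cdh5*, *Kdr*, *Tek*, *Ednrb* and *Aplnr*, 6 of the 10, and 6.22% of all clusters were called lower in both. Of the remaining 4, *Apln* and *Plvap* passed only in KOT against KOC, *Car4* only in WTT against WTC and *Vwf* in neither. Without KOT 81 the count for KOT against KOC was 5, and the share of all clusters in that fit was not counted. By the local-pooled-error test of the study's methods, 8 genes were lower in KOT against KOC (3.63% of all clusters) and 5 in WTT against WTC (4.47%). That test was read at a stricter adjusted p, under 0.01. In 8 genes all KOT mice lay below all KOC mice (16.6% of all clusters) and in *Vwf* above them (18.8%), and in 9 genes all WTT mice lay below all WTC mice (17.4%).

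**Figure D1:**
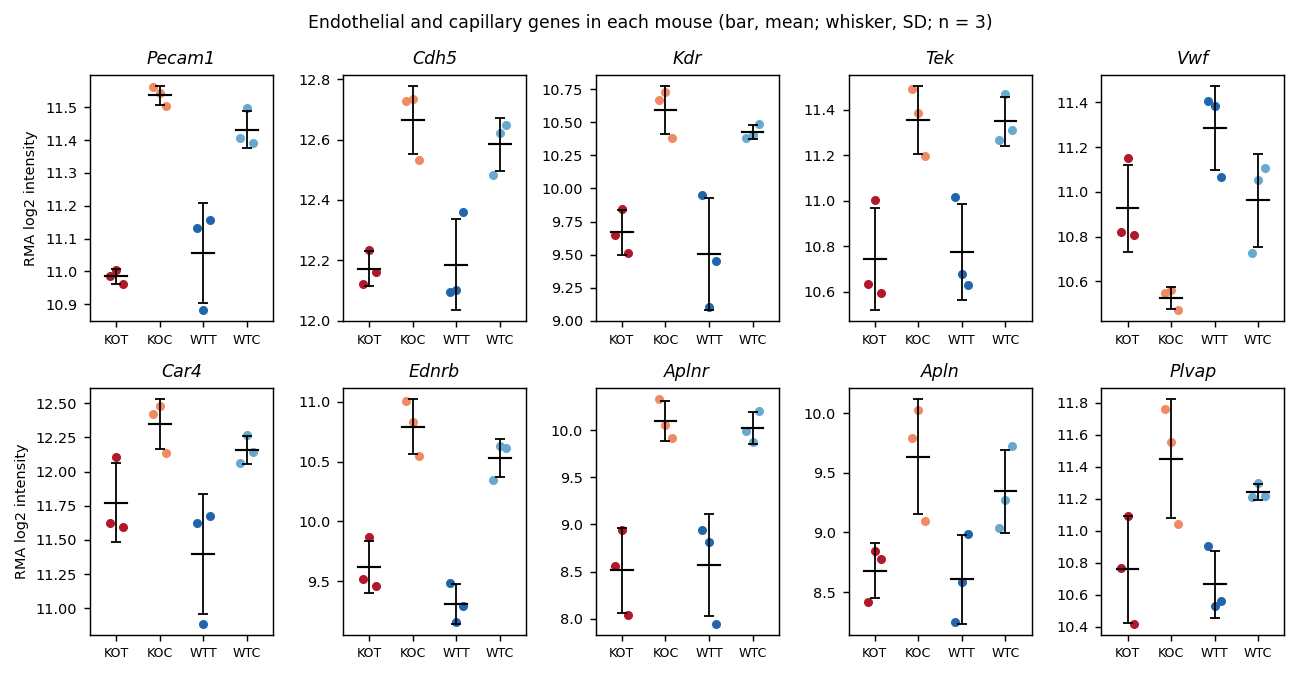
RMA log2 intensity (y axis, a separate range in each panel) of the 10 genes in each of 3 mice in KOT, KOC, WTT and WTC. Points are mice, long bars are means and whiskers are the SD. Except for *Vwf*, each bleomycin-treated group averages below its PBS-treated group, and *Vwf* averages above it.

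The pan-endothelial genes fell by the least when averaged over genotypes, *Pecam1* 1.38-fold and *Cdh5* 1.36-fold. *Pecam1*, the adhesion molecule CD31 of endothelial junctions, was at 10.99, 11.01 and 10.96 in KOT, against 11.56, 11.54 and 11.50 in KOC. It was at 11.13, 10.88 and 11.16 in WTT, against 11.41, 11.50 and 11.39 in WTC. Neither pair of groups overlapped. *Pecam1* fell with a log2 fold change of -0.55 in KOT against KOC (SE 0.08, adjusted p = 0.00143), or 1.47-fold, and of -0.38 in WTT against WTC (SE 0.08, adjusted p = 0.00625), or 1.30-fold. *Cdh5*, the cadherin that holds endothelial cells to one another, was at 12.12, 12.23 and 12.16 in KOT, against 12.73, 12.73 and 12.53 in KOC. It was at 12.09, 12.10 and 12.36 in WTT, against 12.48, 12.62 and 12.65 in WTC. The groups again lay apart in both genotypes. *Cdh5* fell 1.41-fold in KOT against KOC (log2 fold change -0.49, SE 0.09, adjusted p = 0.00479) and 1.32-fold in WTT against WTC (-0.40, SE 0.09, adjusted p = 0.01).

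The receptor genes fell further. *Kdr*, which encodes VEGF receptor 2, was at 9.65, 9.85 and 9.51 in KOT, against 10.67, 10.73 and 10.38 in KOC. It was at 9.95, 9.11 and 9.45 in WTT, against 10.38, 10.41 and 10.49 in WTC. The WTT mice were spread over more than those of the other groups, with an SD of 0.42 against 0.05 in WTC, and still lay below every WTC mouse. *Kdr* fell 1.90-fold in KOT against KOC (log2 fold change -0.92, SE 0.18, adjusted p = 0.00552) and 1.89-fold in WTT against WTC (-0.92, SE 0.18, adjusted p = 0.00408). *Tek*, which encodes the angiopoietin receptor Tie2, was at 10.63, 11.00 and 10.60 in KOT, against 11.49, 11.38 and 11.20 in KOC. It was at 11.02, 10.68 and 10.63 in WTT, against 11.27, 11.47 and 11.31 in WTC. No bleomycin-treated mouse reached the lowest PBS-treated mouse of its genotype. *Tek* fell 1.53-fold in KOT against KOC (log2 fold change -0.61, SE 0.13, adjusted p = 0.0102) and 1.49-fold in WTT against WTC (-0.57, SE 0.13, adjusted p = 0.0107). Without KOT 81 the adjusted p of *Tek* in KOT against KOC was 0.0508.

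The G protein-coupled receptor genes fell by the most among the 10. *Aplnr*, the apelin receptor, was at 8.56, 8.94 and 8.04 in KOT, against 10.33, 10.05 and 9.92 in KOC. It was at 8.95, 8.81 and 7.95 in WTT, against 9.99, 9.87 and 10.20 in WTC. KOT 81 and WTT 164 were the lowest of all, and the groups stayed far apart. *Aplnr* fell 2.996-fold in KOT against KOC (log2 fold change -1.58, SE 0.26, adjusted p = 0.00268) and 2.73-fold in WTT against WTC (-1.45, SE 0.26, adjusted p = 0.00289). *Ednrb*, the endothelin receptor type B, which clears endothelin-1 from the blood in the lung, was at 9.52, 9.87 and 9.46 in KOT, against 11.00, 10.83 and 10.55 in KOC. It was at 9.49, 9.16 and 9.29 in WTT, against 10.34, 10.63 and 10.62 in WTC. The gap between its groups was wider than the range within any of them. *Ednrb* fell 2.26-fold in KOT against KOC (log2 fold change -1.18, SE 0.14, adjusted p = 7.42e-04) and 2.33-fold in WTT against WTC (-1.22, SE 0.14, adjusted p = 4.16e-04).

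*Apln*, the ligand of that apelin receptor, was at 8.42, 8.84 and 8.78 in KOT, against 9.79, 10.03 and 9.10 in KOC. It was at 8.24, 8.59 and 8.99 in WTT, against 9.04, 9.27 and 9.73 in WTC. The groups did not overlap, but the highest bleomycin-treated mice came close to the lowest PBS-treated ones, KOC 67 and WTC 76. *Apln* fell 1.94-fold in KOT against KOC (log2 fold change -0.96, SE 0.26, adjusted p = 0.0266). In WTT against WTC it changed by -0.74 (SE 0.26, adjusted p = 0.0617) and did not pass. The call in KOT against KOC was lost when KOC 53 (adjusted p = 0.0935), KOC 55 (0.108), KOT 72 (0.11) or KOT 81 (0.0656) was left out. In WTT against WTC it passed by the local-pooled-error test (0.00497) and without WTC 76 (0.0495), WTT 164 (0.0442) or KOC 67 (0.0306).

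The capillary surface genes gave calls in 1 genotype each. *Car4*, the carbonic anhydrase anchored on the capillary lumen, was at 11.62, 12.11 and 11.59 in KOT, against 12.42, 12.48 and 12.14 in KOC. It was at 11.63, 10.89 and 11.67 in WTT, against 12.07, 12.27 and 12.14 in WTC. KOT 80 nearly reached KOC 67, and WTT 161 lay well below its group. *Car4* fell 1.70-fold in WTT against WTC (log2 fold change -0.76, SE 0.20, adjusted p = 0.0188), and its log2 fold change in KOT against KOC was -0.57 (SE 0.20, adjusted p = 0.078). Without KOT 80 that comparison gave an adjusted p of 0.0307 and without WTT 161, which adds to the shared spread, 0.0206. The call in WTT against WTC was lost without WTC 157 (0.0665) or WTT 161 (0.0524).

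*Plvap*, which forms the diaphragms of endothelial caveolae and fenestrae, was at 10.76, 11.09 and 10.42 in KOT, against 11.76, 11.55 and 11.04 in KOC. It was at 10.91, 10.53 and 10.56 in WTT, against 11.21, 11.30 and 11.22 in WTC. The KO groups overlapped at KOT 80 and KOC 67, and the WT groups did not overlap. *Plvap* fell 1.62-fold in KOT against KOC (log2 fold change -0.69, SE 0.19, adjusted p = 0.0316), and its log2 fold change in WTT against WTC was -0.58 (SE 0.19, adjusted p = 0.0529). The call in KOT against KOC was lost without KOC 53 (adjusted p = 0.126), KOC 55 (0.104), KOT 72 (0.0893) or KOT 81 (0.132) and with only the 6 arrays of the comparison (0.081). WTT against WTC passed by the local-pooled-error test (0.00852), with only its own 6 arrays (0.0162), with array weights (0.0308) and with a minimum group mean of 6 (0.0446), as it did without WTT 160 (0.0361), KOC 53 (0.0446), KOC 67 (0.0249), KOT 80 (0.0362) or KOT 81 (0.0381).

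*Vwf*, the clotting glycoprotein that endothelial cells store and that carries factor VIII in blood, went the other way. It was at 10.82, 11.15 and 10.81 in KOT, against 10.55, 10.56 and 10.47 in KOC. It was at 11.41, 11.38 and 11.07 in WTT, against 10.73, 11.05 and 11.11 in WTC. Every KOT mouse lay above every KOC mouse, and WTT 164 lay below WTC 158. The log2 fold change was 0.40 in KOT against KOC (SE 0.13, adjusted p = 0.0574) and 0.32 in WTT against WTC (SE 0.13, adjusted p = 0.0987), and neither passed. Averaged over genotypes *Vwf* rose 1.29-fold (log2 fold change 0.36, SE 0.09, adjusted p = 0.00965). KOT against KOC passed without WTC 76 (0.0375) or WTT 164 (0.0419), and WTT against WTC passed without WTT 164 (0.0499).

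**Figure D2:**
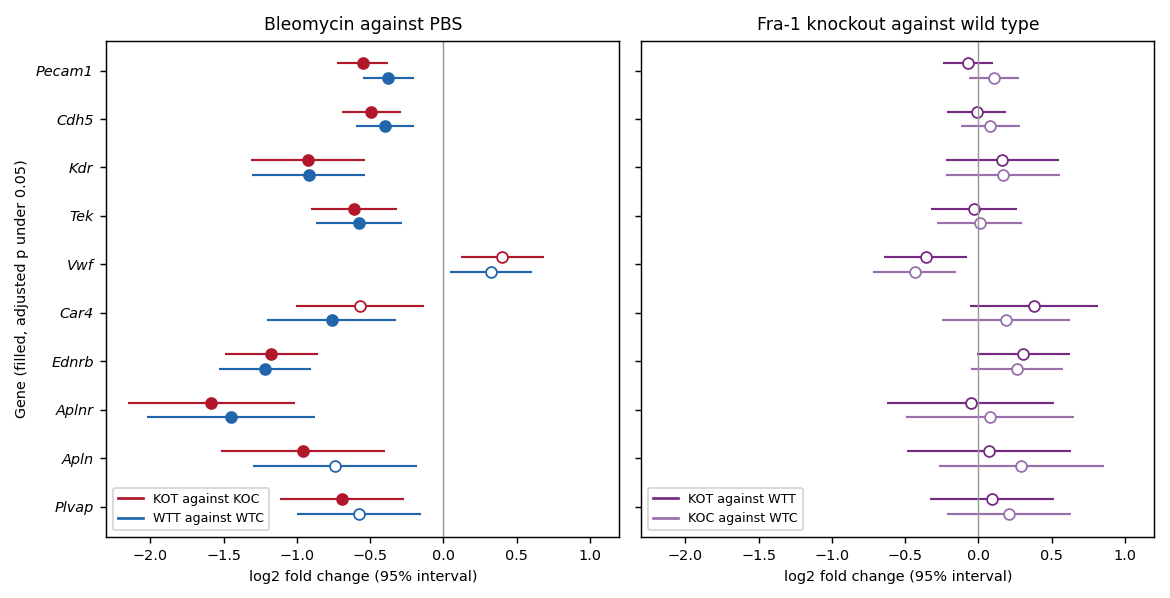
Log2 fold changes (x axis) of the 10 genes (y axis) with 95% intervals, for bleomycin against PBS in each genotype (left) and for Fra-1-/- against Fra-1+/+ under each treatment (right). Filled points passed at an adjusted p under 0.05, which 8 did in KOT against KOC, 7 in WTT against WTC and 0 in the comparisons of genotypes.

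Changes that differed in size were set against that of *Cdh5* by subtracting it within each array, again averaged over genotypes. Of the 9 other genes, *Aplnr* fell by more than *Cdh5* (log2 difference -1.07, SE 0.19, adjusted p = 2.03e-04), as did *Ednrb* (-0.75, SE 0.10, adjusted p = 2.08e-05), *Kdr* (-0.48, SE 0.13, adjusted p = 0.00286) and *Apln* (-0.40, SE 0.14, adjusted p = 0.0131). Over all clusters 2.50% were lower relative to *Cdh5*. *Pecam1* moved with *Cdh5* to within a log2 difference of -0.02 (SE 0.08, adjusted p = 0.83). *Car4* (-0.22, adjusted p = 0.093), *Plvap* (-0.19, adjusted p = 0.176) and *Tek* (-0.15, adjusted p = 0.201) did not pass. *Vwf* was higher relative to *Cdh5* (0.81, adjusted p = 2.47e-05), as were 84.2% of all clusters, since *Cdh5* itself fell. With *Pecam1* in place of *Cdh5*, 4 of 9 genes were again lower (2.48% of all clusters) and *Vwf* again higher (86.6%). Because most clusters passed, the adjustment changed the limma p-values little. For *Apln* it took p from 0.0105 to 0.0131 with *Cdh5* and from 0.0433 to 0.0486 with *Pecam1*. Both references were also the genes that fell by the least.

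Between genotypes, none of the 10 genes passed in KOT against WTT or in KOC against WTC by limma, where 0% of all clusters were lower in either, and 0.0427% and 0.0128% were higher. By the local-pooled-error test 0 of the 10 passed as well, where 0.150% of all clusters were lower and 0.555% higher in KOT against WTT, and 1.44% lower and 0.346% higher in KOC against WTC. At an unadjusted p under 0.05, *Vwf* was the 1 gene in each comparison, lower in both, among 6.32% of clusters lower and 4.27% higher in KOT against WTT, and 6.88% lower and 2.94% higher in KOC against WTC. It differed by -0.36 in KOT against WTT (SE 0.13, adjusted p = 0.378) and by -0.44 in KOC against WTC (SE 0.13, adjusted p = 0.404) on the log2 scale. The KOC mice lay below every WTC mouse for *Vwf*, and 9.37% of all clusters were lower without overlap in that comparison. KOC lay just above WTC for *Pecam1*, also without overlap, as were 6.88% of all clusters, with a log2 fold change of 0.10 (adjusted p = 0.723). In bleomycin-treated mice *Car4* differed by 0.38 (95% interval -0.06 to 0.81, adjusted p = 0.533) and *Ednrb* by 0.30 (-0.01 to 0.62, adjusted p = 0.484). The other differences in KOT against WTT were 0.16 for *Kdr*, 0.09 for *Plvap*, 0.07 for *Apln*, -0.01 for *Cdh5*, -0.03 for *Tek*, -0.05 for *Aplnr* and -0.07 for *Pecam1*. In PBS-treated mice *Apln* differed by 0.29 (-0.27 to 0.85, adjusted p = 0.772) and *Ednrb* by 0.26 (-0.05 to 0.58, adjusted p = 0.603). The others in KOC against WTC were 0.21 for *Plvap*, 0.19 for *Car4*, 0.17 for *Kdr*, 0.08 for *Cdh5*, 0.08 for *Aplnr* and 0.0074 for *Tek*.

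The test of the difference between the responses, KOT minus KOC less WTT minus WTC, passed for 0 of the 10 genes and for 0% of all clusters in either direction, and 0 of the 10 reached an unadjusted p under 0.05 in limma, as 2.10% of all clusters did on the lower and 2.99% on the higher side. The differences lay between -0.22 for *Apln* (95% interval -1.01 to 0.57) and 0.19 for *Car4* (-0.43 to 0.81). The intervals for *Pecam1* (-0.42 to 0.07) and *Cdh5* (-0.38 to 0.19) were the narrowest. The differences were -0.13 for *Aplnr*, -0.12 for *Plvap*, -0.04 for *Tek*, -0.0028 for *Kdr*, 0.04 for *Ednrb* and 0.08 for *Vwf*. Thus *Apln*, *Plvap* and *Car4*, which passed in 1 genotype only, were not shown to respond otherwise in the other.

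In some groups the same mouse was highest or lowest for most of the 10 genes. KOT 80 was the highest KOT mouse for all 10 genes and KOC 67 the lowest KOC mouse for all 10, *Vwf* included. KOT 81 was lowest for 8 genes and WTC 76 for 8. The median deviation from the mean of the group was 0.24 in KOT 80 and -0.20 in KOC 67. In WTT the order changed with the gene, since WTT 160 was highest for 6 genes and lowest for 2, among them *Apln*. KOT 80 also had the highest mean of 7 alveolar type 1 genes in its group, 11.01 against 10.50 and 10.62, and the lowest mean of 8 leukocyte genes, 10.23 against 10.47 and 10.56. KOC 67 lay between KOC 53 and KOC 55 for the alveolar type 1 genes, at 11.48, and had the highest leukocyte mean of KOC, 9.95 against 9.71 and 9.70. The mean of 7 alveolar type 2 genes was also highest in KOT 80 among KOT, 12.46 against 11.97 and 12.07. The part of these cell types in the spread was not tested. The share of all clusters in which these mice were highest or lowest was not counted. This order is thus not shown to be particular to the 10 genes.

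**Figure D3:**
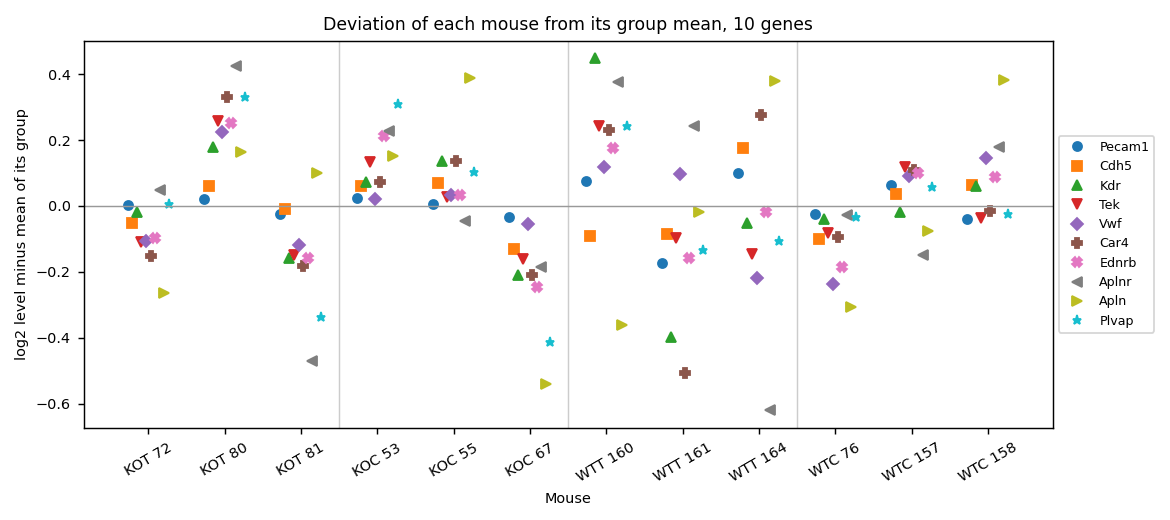
Deviation of each gene from the mean of its own group (y axis, log2) in the 12 mice (x axis, 3 each in KOT, KOC, WTT and WTC); each symbol is 1 of the 10 genes. All 10 symbols lie above 0 in KOT 80 and below 0 in KOC 67.

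For each gene that passed in at least 1 genotype, the genes nearest in profile over the 12 mice were taken by the root mean square difference of centred log2 values. Nearest to *Pecam1* were *Igf1r* (0.06), *Rabac1* (0.06) and *Rab11fip2* (0.07), and nearest to *Cdh5* were *Spred2* (0.06), *Tm4sf1* (0.06) and *Tgfbr3* (0.07). *Tek* lay nearest to *Ptprb* (0.06), which encodes a phosphatase that acts on Tie2, then *Arhgef12* (0.07) and *Erg* (0.07), an endothelial transcription factor. *Kdr* lay nearest to *Efnb2* (0.07), the arterial ephrin, *Reck* (0.10) and *Tspan13* (0.10). *Plvap* lay nearest to *Smad6* (0.08), an inhibitor of BMP signalling, *Stc1* (0.11) and *Clec3b* (0.12). The other genes had more distant neighbours, *Ednrb* with *Plce1* (0.11), *Mme* (0.12) and *Rmdn2* (0.13), *Car4* with *Lrrc1* (0.12), *Gnao1* (0.14) and *Rasgef1a* (0.14), *Aplnr* with *Fgfr4* (0.18), *Scube2* (0.19) and *Mamdc2* (0.19), and *Apln* with *Tmem47* (0.19), *Xpnpep2* (0.19) and *Plagl1* (0.21). Among the 10 themselves the closest pair was *Pecam1* and *Cdh5*, at 0.08. Genes outside the 10 still lay nearer to both. Ranked with those genes, *Cdh5* took place 16 for *Pecam1*, and *Pecam1* took place 14 for *Cdh5*. For the genes that passed, the place of the nearest of the 10 ran from 12 for *Plvap* to 327 for *Tek*. These differences are absolute and were not scaled to the size of each gene's own profile. The root mean square of that profile was 0.25 for *Pecam1*, 0.24 for *Cdh5*, 0.33 for *Tek* and 0.40 for *Plvap*. It was 0.43 for *Car4*, 0.51 for *Kdr*, 0.53 for *Apln*, 0.64 for *Ednrb* and 0.82 for *Aplnr*. A larger distance thus need not mean a less similar pattern.

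Other genes of the same cells were counted by the same test, with bleomycin averaged over genotypes. Over all clusters 16.3% were lower and 15.7% higher. Of 25 further pan-endothelial genes, 15 were lower, 1 was higher and 9 did not pass, with a median of -0.31. *Icam2* (-0.58), an adhesion molecule, *Clec14a* (-0.90), *Myct1* (-0.92) and *Tie1* (-0.58), the partner receptor of Tie2, had the smallest p among those lower, and *Cd34* was higher (0.30), a gene that fibroblasts also use. Of 9 general capillary genes, 8 were lower, among them *Sema3c* (-0.81), *Adgre5* (-0.48), *Hpgd* (-0.87), which degrades prostaglandins, and *Ptprb* (-0.60), and the chemokine gene *Cxcl12* was higher (0.56). Of 7 measured aerocyte genes, 2 were lower, *Fibin* (-1.13) and *Emp2* (-0.54), which is also an alveolar type 1 gene, and *Cyp1b1* was higher (1.11). Among 8 arterial genes, 6 were lower, with *Efnb2* at -0.94 and *Hey1* at -0.99, and 0 were higher. The 5 venous genes gave 1 call, *Ackr1*, which was higher by 1.11, and the 6 lymphatic genes gave 1, *Flt4*, lower (-0.28). For lists this small, the aerocyte, venous and lymphatic counts were not far from the shares over all clusters.

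The signals that act on these receptors moved in both directions, counted beside the same 16.3% of all clusters lower and 15.7% higher. Of 9 VEGF ligand and receptor genes, 5 were lower, including *Vegfa* (-0.69), the ligand of VEGF receptor 2, and its co-receptor *Nrp1* (-0.41), while *Pgf* (1.12), which binds VEGF receptor 1, and *Nrp2* (0.36) were higher. *Angpt1* (-0.56), which activates Tie2, was lower, and *Angpt2*, at -0.18 (adjusted p = 0.126), did not pass, so that 3 of 5 angiopoietin and Tie genes were lower and 0 higher. The others lower, *Tie1* and *Ptprb*, were already counted above in the pan-endothelial and general capillary lists. Of 9 Notch and tip cell genes, 6 were lower and 0 higher, with *Notch1* at -0.32 and *Notch4* at -0.48. For the endothelin system, *Edn1* (0.60) and *Ece2* (0.55) were higher and *Edn3* (-1.09) and *Ece1* (-0.48) lower, of 5 measured. Of 15 further carbonic anhydrases 4 were lower and 2 higher, *Car13* by 1.28, which was not far from those shares. The caveolar genes *Cavin2* (-1.09), *Cav2* (-0.68), *Cav1* (-0.52) and *Cavin1* (-0.34) were among 5 of 7 that were lower, with 0 higher. Of 4 measured genes of von Willebrand factor partners, *F8* (-0.39) and the platelet gene *Gp9* (-0.66) were lower, against the higher *Vwf*. *Gp9* is counted again in the platelet list below.

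**Figure D4:**
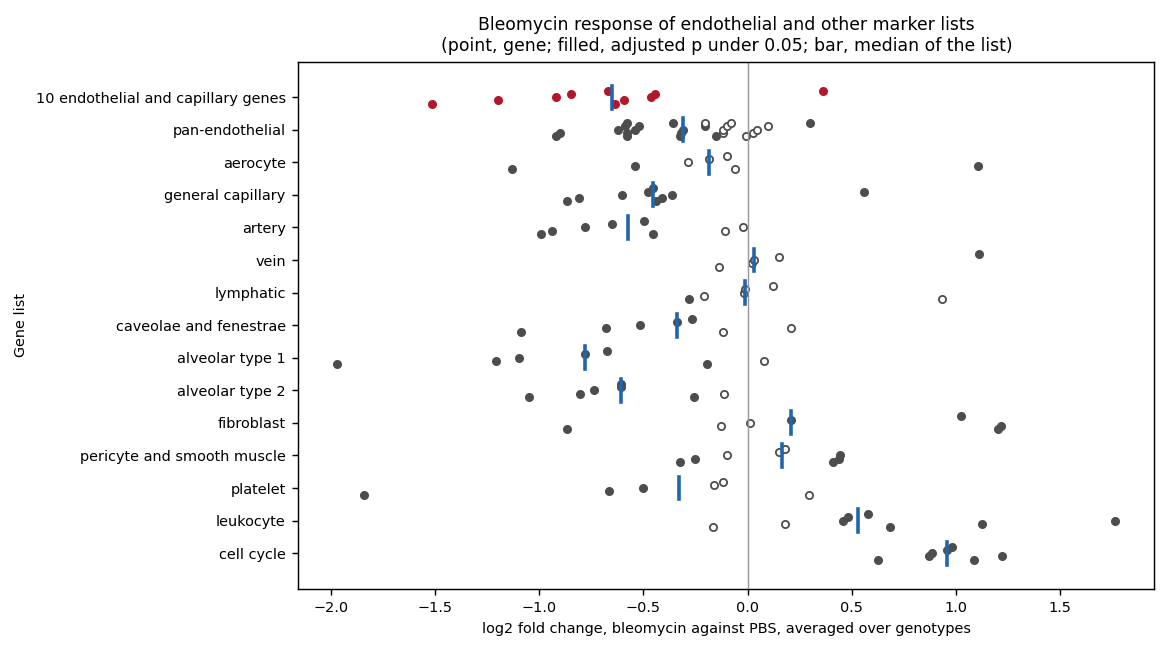
Log2 fold change of bleomycin against PBS averaged over genotypes (x axis) for single genes (points) in the 10 genes and 14 marker lists (y axis). Filled points passed at an adjusted p under 0.05 and vertical bars are list medians, at -0.65 for the 10 genes, -0.31 for the pan-endothelial list, -0.78 for alveolar type 1 and 0.53 for leukocyte genes.

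Markers of other lung cells moved with bleomycin as well, counted beside 16.3% of all clusters lower and 15.7% higher. Alveolar type 1 genes were lower in 6 of 7, with a median of -0.78, and the list averaged 10.50 to 11.01 in KOT, 11.48 to 11.49 in KOC, 10.47 to 10.81 in WTT and 11.37 to 11.61 in WTC. Alveolar type 2 genes were lower in 6 of 7, with a median of -0.61 and ranges of 11.97 to 12.46 in KOT, 12.73 to 12.80 in KOC, 11.86 to 12.31 in WTT and 12.64 to 12.66 in WTC. Leukocyte genes were higher in 6 of 8, led by *Cd68* (1.12) and *Itgam* (1.77), while *Ptprc* (0.18) and the T cell gene *Cd3e* (-0.17) did not pass. The leukocyte list averaged 10.23 to 10.56 in KOT, 9.70 to 9.95 in KOC, 10.29 to 10.57 in WTT and 9.53 to 10.05 in WTC. All 7 cell cycle genes were higher, with a median of 0.95 and ranges of 8.56 to 8.74 in KOT, 7.43 to 8.03 in KOC, 8.37 to 8.90 in WTT and 7.26 to 8.06 in WTC. Fibroblast genes were higher in 4 of 7 and lower in 1, at 10.47 to 10.67 in KOT, 10.16 to 10.39 in KOC, 10.44 to 10.63 in WTT and 10.02 to 10.20 in WTC. Pericyte and smooth muscle genes were higher in 3 of 8 and lower in 2, at 9.84 to 10.03 in KOT, 9.80 to 10.10 in KOC, 9.98 to 10.06 in WTT and 9.77 to 9.85 in WTC. Cardiac muscle genes were lower in 5 of 6, at 9.88 to 10.23 in KOT, 9.68 to 11.24 in KOC, 8.91 to 9.45 in WTT and 10.54 to 10.96 in WTC. By genotype, 5 of these 6 were lower in WTT against WTC (11.3% of all clusters) and 0 in KOT against KOC (7.98%), where KOC was widely spread. The difference between their responses passed for 0. An unadjusted p under 0.05 in limma was reached by 4, all on the higher side, as by 2.99% of all clusters. Platelets also hold *Vwf* and *Pecam1* products, and platelet genes were lower in 3 of 6, chiefly *Ppbp* (-1.84), and averaged 7.72 to 7.88 in KOT, 8.03 to 8.81 in KOC, 8.03 to 8.45 in WTT and 8.32 to 8.73 in WTC. *Pecam1* is also used by leukocytes. The part of these cells in the endothelial values was not tested.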

How the data were processed

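RNA of 12 left lungs was measured on 1 array each. The authors normalised probe signals by quantiles over all samples and summarised clusters by median polish (RMA, run with Affymetrix Power Tools of a version not given in the sources used here), and the deposited values are log2 intensities. No further normalisation was applied. The filter on detection above background in the study's methods was not used here.

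Clusters were named by the platform's probe table. The 23410 clusters with a symbol were fitted with 1 mean per group over all 12 arrays (8 residual degrees of freedom) in limma 3.58.1, R 4.3.3, with p-values two-sided and adjusted by Benjamini-Hochberg over all of them. An SE thus also holds the spread of the other groups. An exact two-sided rank or permutation test of 3 mice against 3 cannot go below p = 0.1, so the calls rest on limma's model of normal errors. Its variance joins each cluster's own spread (8 residual degrees of freedom) with a prior drawn from all clusters (3.57 degrees of freedom). Precision is limited by the number of arrays. The local-pooled-error test of the methods (medians, adjusted p under 0.01) was rewritten in R. Scripts were tested on simulated data. The rule names all 10 genes in each comparison, up to 4 genes per list with the smallest p, or fewer of these, and the 3 nearest genes in profile for each gene that passed. Genes singled out beyond this (*Cd34*, *Cxcl12*) were chosen after their values were seen. The 10 genes and the 21 lists were chosen with earlier results of these data known. In the lists, genes with no cluster of 1 symbol (such as *Prx* and *Ednra*) were left out. Promoter windows came from RefSeq, GRCm38.p6.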

Additional observations from a re-analysis of the deposited data

How the results depend on the processing

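The direction of bleomycin against PBS was kept for all 10 genes in both genotypes under each alternative: the local-pooled-error test, a fit to the 6 arrays compared, weighted arrays, moderation with a trend, equal array medians, cyclic loess, a minimum group mean of 6, all 35556 clusters, and leaving out each mouse. The count of genes called was 5 to 9 for KOT against KOC with 1 mouse left out (8 with all mice) and stayed within 1.5 times its value under the other alternatives, as did the other counts under all of them. The local-pooled-error test was read at an adjusted p under 0.01, and limma at 0.05. By that test *Pecam1* (adjusted p = 0.512), *Cdh5* (0.0131), *Tek* (0.0123) and *Car4* (0.0301) lost their calls in WTT against WTC. *Pecam1* (0.0294) lost its call in KOT against KOC. *Car4* (8.99e-05) gained one in KOT against KOC, and *Apln* (0.00497) and *Plvap* (0.00852) gained one in WTT against WTC. Except for *Pecam1* in WTT against WTC, the lost calls were under 0.05 and missed only the stricter threshold. The cause of the other changes was not tested. Array weights raised the count in KOT against KOC to 10, and *Vwf* passed there with only 6 arrays (0.0459), trended moderation (0.0464) or the minimum mean (0.047). Apart from the local-pooled-error test, the shares of all clusters called under these alternatives were not counted. A change in count is thus not shown to be particular to the 10 genes. 

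Differences near 0 changed sign. For KOT against WTT these were *Cdh5* (0.0606) and *Car4* (-0.0024) by the local-pooled-error test and *Apln* with array weights (-0.11), for KOC against WTC *Tek* with cyclic loess (-0.0271), and for the difference between responses *Kdr* with array weights (0.0183) and cyclic loess (0.012) and *Ednrb* with array weights (-0.0307) and equal medians (-0.0072). With 1 mouse left out, KOT against WTT ran from -0.11 to 0.26 for *Apln*, -0.36 to 0.18 for *Aplnr*, -0.0583 to 0.0743 for *Cdh5*, -0.0351 to 0.39 for *Kdr*, -0.0738 to 0.26 for *Plvap* and -0.16 to 0.0911 for *Tek*. KOC against WTC ran from -0.0361 to 0.17 for *Aplnr* and -0.0594 to 0.0878 for *Tek*. The difference between responses ran from -0.44 to 0.10 for *Aplnr*, -0.0616 to 0.33 for *Car4*, -0.0839 to 0.15 for *Ednrb*, -0.20 to 0.22 for *Kdr*, -0.32 to 0.0526 for *Plvap*, -0.17 to 0.0838 for *Tek* and -0.0359 to 0.19 for *Vwf*.

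No paired analysis was possible because no animal number is shared between groups. Another cluster of the same symbol could not be tried, since each gene had 1. Genotype and animal number series go together, except that WTC 76 has a low number like the Fra-1-/- mice, so they cannot be told apart in most comparisons of genotypes. Within each genotype every PBS-treated mouse also has a lower number than every bleomycin-treated mouse. Treatment and number order therefore cannot be told apart either.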
